A study of Homo sapiens with 10 samples.

Results

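The core circadian clock was described here by 10 genes, PER1, PER2, PER3, CRY1, CRY2, NR1D1, NR1D2, DBP, ARNTL and CLOCK, chosen by symbol and all found among the 23426 gene symbols of every sample. RNA had been sequenced from a pair of human breast cancer cell lines, MDA-MB-468, which the labels class as basal, and ZR75-1, which they class as luminal. Each line was kept for 6 h with the solvent DMSO (2 samples) or with 1 µM PKC412 (3 samples), 10 samples in all. The dose is that of the labels and methods, and some legends of the study give a lower one. Triplicates are stated in the methods, whereas the data analysed here held 2 solvent samples of each line. PKC412 (midostaurin) is a staurosporine derivative that inhibits several protein kinases. Each subtype was represented by 1 established line, and nothing in the sources says whether samples of a group came from separate cultures, so the p-values below measure only the spread between these samples. All samples of a line were harvested at 1 time after treatment and no step to synchronise the cells was described in the sources used here, so these levels say nothing of rhythm or phase.

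In the clock, the factors CLOCK and ARNTL (BMAL1) pair on E-box sequences and switch on the PER and CRY genes, whose proteins then return to the nucleus and hold that pair down. The REV-ERB receptors, encoded by NR1D1 and NR1D2, form a second loop in which they repress ARNTL through RORE sequences, and DBP, itself switched on through E-boxes, drives genes with D-box sequences, PER genes among them. Outside these loops, hormones, cyclic AMP and serum raise PER1 quickly in many cell types, through routes that include the factor CREB and the glucocorticoid receptor. Whether this sets PER1 apart from the other members was not examined here.

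PER1 was the only member that passed the test with PKC412. In MDA-MB-468 it rose 2.48-fold in mean level, and in ZR75-1 the same ratio was 1.81 and did not pass. The call in MDA-MB-468 was lost in 10 of 21 alternative analyses, all of which kept its direction. Of the other members, PER2 and CRY1 had the highest ratios in MDA-MB-468, at 3.25 and 2.85, without passing the test. Between the lines, PER3 was 5.11-fold higher in MDA-MB-468 in DMSO, the only member that passed there, and PER1, PER3, CRY1, NR1D2 and DBP passed, all higher in MDA-MB-468, among the PKC412 samples. The shares of all genes that passed these comparisons between the lines were 42.4% in DMSO and 58.6% with PKC412, so the members' counts of 1 and 5 of 10 lay below or near the background.

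Levels are given as FPKM, fragment counts scaled by transcript length and by the size of the library, so that genes can be compared per length. Sums of FPKM ran from 599228 to 835069 per sample, and the number of reads behind them was not given. The members were low to moderate, from 0.155 (CLOCK in ZR75-1 PKC412 replicate 2) to 21.3 (DBP in MDA-MB-468 DMSO replicate 1), and all 10 were kept for testing, which asked that the mean of any 1 group exceed 0.1 FPKM. The basal line was checked against 7 basal markers, whose summed FPKM was 2410 to 2670 in its samples and 19.8 to 26.0 in ZR75-1, where only CDH3 had means above 1. CDH3 went the other way from the sum, with means of 10.6 and 10.9 FPKM in MDA-MB-468 (DMSO and PKC412) and 21.6 and 21.8 in ZR75-1. The 7 luminal markers summed to 10300 to 15400 in ZR75-1 and to 1910 to 3540 in MDA-MB-468, where ESR1, the estrogen receptor gene, alone had means below 1. Of 10 leukocyte, endothelial and fibroblast markers, no more than 2 had a mean above 1 in any group, CD68 and COL1A1. PTPRC, CD3E, VWF, CDH5, COL1A2 and DCN stayed below 0.1 in every sample. COL1A1 rose with PKC412 in ZR75-1 (log2 difference 1.49, limma adjusted p = 0.0181) and PECAM1, an endothelial marker whose highest value was 0.890 FPKM, in MDA-MB-468 (0.31, adjusted p = 0.0404); both were named after their values were seen. The list summed to 7.83 to 18.8, with higher sums in PKC412 than in DMSO in both lines, and the part of this in the results was not tested.

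DBP was the most abundant member in all 4 groups, with means of 20.1 and 19.0 FPKM in MDA-MB-468 (DMSO and PKC412) and 15.4 and 10.4 in ZR75-1, and its samples overlapped no other member. NR1D1 came next in every group, at 4.35 to 5.46 FPKM. In MDA-MB-468 DMSO the order continued with CRY2 (4.0), PER1 (2.18), PER3 (2.15), CRY1 (1.43), ARNTL (1.20), NR1D2 (1.11), CLOCK (0.624) and PER2 (0.293). Neighbours whose samples overlapped there were NR1D1 and CRY2, PER1 and PER3, CRY1 and ARNTL, and ARNTL and NR1D2. With PKC412 every neighbour below DBP overlapped in that line, and PER1 followed NR1D1 at 5.41. In ZR75-1 the order from the top was DBP, NR1D1, CRY2 and PER1 in both treatments, each clear of the next down to PER1, and from PER1 to the lowest member all neighbours overlapped. PER2 was the lowest member in 3 groups and PER3 in ZR75-1 PKC412, at 0.574.

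**Figure D1:**
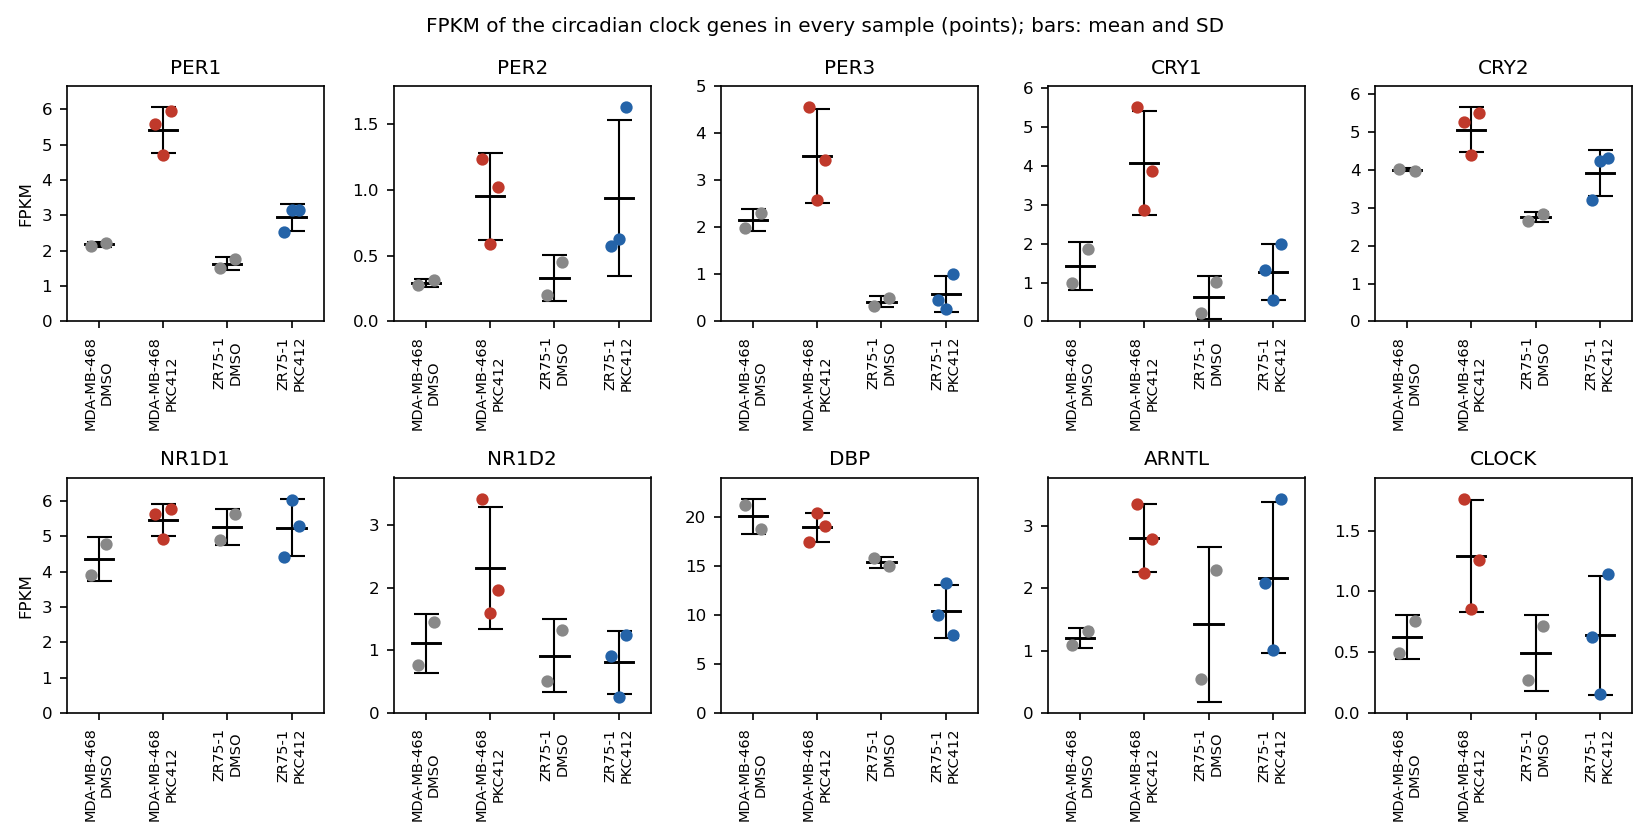
FPKM of each of the 10 clock genes in every sample (points), by cell line and treatment, with the mean (long bar) and SD (short bars; n = 2 in DMSO, n = 3 in PKC412); each panel has its own linear axis from 0. The PER1 samples of PKC412 lie above those of DMSO in both lines with little spread within groups, while PER2, CRY1, NR1D2, ARNTL and CLOCK spread widely within groups.

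PER1 encodes a period protein, a repressor of CLOCK and ARNTL. In MDA-MB-468 its FPKM was 2.13 and 2.23 in DMSO and 5.59, 4.70 and 5.94 in PKC412. ZR75-1 had 1.50 and 1.77 in DMSO and 2.52, 3.16 and 3.16 in PKC412. All 3 treated samples lay above both solvent samples in each line, and the lowest treated sample of MDA-MB-468 was higher than any sample of ZR75-1. On the log2(FPKM + 1) scale, which understates changes of low genes, the difference in MDA-MB-468 was 1.01 (SE 0.16, 95% interval 0.65 to 1.37, limma adjusted p = 0.0267), or 0.90 above the median of all genes tested. Here 1 of the 10 members passed, against 1.26% of the 16071 genes tested (202 genes). In ZR75-1 the difference was 0.58 (SE 0.16, interval 0.22 to 0.94, adjusted p = 0.214), and no member passed, 0 of 10, against 0.946% of all genes. At an unadjusted limma p under 0.05 were 3 members in ZR75-1 (PER1, CRY2 and DBP), against 1794 of the 16071 genes. In MDA-MB-468 there were also 3 (PER1, PER2 and CRY1), against 2635 genes.

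The response of PER1 did not differ detectably between the lines. Its difference of differences, MDA-MB-468 minus ZR75-1, was 0.42 (interval -0.09 to 0.94, limma adjusted p = 0.834), so a response up to 0.94 log2 units larger in MDA-MB-468 remained within the interval. No member passed this limma test, 0 of 10 against 0.268% of all genes, nor was any at an unadjusted p under 0.05 (0 of 10, against 1133 of 16071 genes). The PER1 call in MDA-MB-468 was sensitive to the analysis: it was past the threshold in 11 of 21 alternative analyses. Over all 21 the difference ran from 0.73 to 1.27 and the limma adjusted p from 0.00205 to 0.683. The call was lost without its PKC412 replicate 1 (adjusted p = 0.102) or 3 (0.123), or without ZR75-1 PKC412 replicate 1 (0.0561). It was also lost when samples were rescaled to equal median ratios over all 10 samples (difference 0.73, adjusted p = 0.159) or within each line (0.80, 0.0597). Without DMSO replicate 1 or 2 of MDA-MB-468, which leaves 1 sample in that group, the difference was 0.98 and 1.03, and the call was lost.

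PER1 lies on chromosome 17 on the reverse strand (chr17:8140472-8156506, GRCh38). CLOCK and ARNTL act through E-boxes, and PER1 was the only member that passed the test with PKC412. For these reasons the stretch upstream of the PER1 RefSeq start is shown. It is the part of the 250 bases before the start that lies outside annotated exons, chr17:8152436-8152654 of GRCh38.p14, reverse strand, from RefSeq, with the E-box CACGTG in capitals.
PER1: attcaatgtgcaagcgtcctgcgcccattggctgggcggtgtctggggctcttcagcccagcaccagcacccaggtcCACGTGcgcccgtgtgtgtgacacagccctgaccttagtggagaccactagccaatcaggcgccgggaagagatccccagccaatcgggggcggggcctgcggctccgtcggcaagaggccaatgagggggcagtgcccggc
That window lies inside the longer PER1 gene of the GENCODE annotation, whose first start is further upstream. The letters CACGTG, the same on both strands, occurred in the windows of 7.73% of 27305 genes. Neither the full cyclic AMP response element TGACGTCA (2.03% of genes, the same on both strands) nor its 5-base part TGACG, searched on both strands (24.9%), was found in the PER1 window, which says only that these letters are not in these bases. TGACG lies within TGACGTCA, so the 2 searches overlap.

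PER2 (chr2:238244038-238290102, GRCh38, reverse strand), a period repressor like PER1, was the lowest member in DMSO in both lines. Its FPKM in MDA-MB-468 was 0.274 and 0.313 in DMSO and 1.24, 0.593 and 1.02 in PKC412. The ZR75-1 samples had 0.204 and 0.453 in DMSO and 0.572, 0.624 and 1.63 in PKC412. The treated samples lay above the solvent samples in both lines, but the coefficient of variation within a PKC412 group was 34.7% and 63.2%, against 11.8% and 12.6% for PER1. The log2 differences were 0.58 (interval 0.03 to 1.13, limma adjusted p = 0.293) in MDA-MB-468 and 0.51 (-0.04 to 1.06, adjusted p = 0.471) in ZR75-1. By a limit of 3-fold in either direction on the group means, PER2 in MDA-MB-468 (ratio 3.25) was the only member past the fold, 1 of 10 against 7.21% of genes, and in ZR75-1 there was none, 0 of 10 against 4.09%; these ratios carry no test.

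PER3, the remaining period gene, set the lines apart. Its FPKM in MDA-MB-468 was 1.98 and 2.31 in DMSO and 4.55, 2.58 and 3.44 in PKC412. ZR75-1 had lower values, 0.337 and 0.505 in DMSO and 0.462, 0.259 and 1.00 in PKC412. Every MDA-MB-468 sample was higher than every ZR75-1 sample, and with PKC412 the groups separated in MDA-MB-468 and overlapped in ZR75-1. The difference with PKC412 was 0.50 (-0.05 to 1.05, limma adjusted p = 0.319) in MDA-MB-468 and 0.12 (-0.43 to 0.68, adjusted p = 0.909) in ZR75-1. PER3 overlaps UTS2 on the opposite strand by 868 of its 8099 exonic bases. UTS2 was listed at 0 in all 10 samples.

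PER3 lies on the forward strand of chromosome 1 (chr1:7784320-7845177, GRCh38). Its promoter window is shown because it was the member that differed most between the lines and because it holds a D-box, the sequence bound by DBP: all 250 bases before a RefSeq start, chr1:7784041-7784290 of GRCh38.p14, forward strand, with the D-box TTATGTAA in capitals.
PER3: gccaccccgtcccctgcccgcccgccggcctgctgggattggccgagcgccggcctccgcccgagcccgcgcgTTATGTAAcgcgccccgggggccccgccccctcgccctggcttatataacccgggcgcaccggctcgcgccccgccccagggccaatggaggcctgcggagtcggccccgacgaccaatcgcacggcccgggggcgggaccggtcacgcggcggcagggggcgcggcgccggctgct
TTATGTAA, searched on both strands, occurred in 1.06% of genes' windows, and the related form TTACGTAA, the same on both strands, in 0.128% and in no member's window.

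CRY1 and CRY2 encode the cryptochromes, the partners of the PER proteins in repression, and lie at chr12:106991364-107093829 (reverse strand) and chr11:45847118-45883248 (forward strand) of GRCh38. CRY1 had FPKM of 0.989 and 1.87 in MDA-MB-468 DMSO and of 5.50, 2.86 and 3.86 in PKC412. In ZR75-1 it had 0.218 and 1.01 in DMSO and 1.31, 0.551 and 1.99 in PKC412. The groups separated in MDA-MB-468 and overlapped in ZR75-1. Its fitted difference in MDA-MB-468, 1.05 (0.23 to 1.88), was as large as that of PER1 but with an SE of 0.36 against 0.16, and its limma adjusted p was 0.243. In ZR75-1 it was 0.49 (-0.34 to 1.32, adjusted p = 0.672).

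CRY2 was among the steadiest members. Its FPKM was 4.03 and 3.97 in MDA-MB-468 DMSO and 5.26, 4.39 and 5.51 in PKC412. For ZR75-1 the values were 2.66 and 2.84 in DMSO and 3.21, 4.23 and 4.30 in PKC412. Treated samples were higher in both lines, by log2 differences of 0.27 (-0.10 to 0.64, limma adjusted p = 0.367) and 0.38 (0.01 to 0.75, adjusted p = 0.432). When the samples were rescaled to equal median ratios over all 10 samples, the value for CRY2 in MDA-MB-468 became -0.0043. A second RefSeq start of CRY2 had the letters TAGGTCA, the core of the RORE through which REV-ERB receptors act, in its window (searched on both strands, 2.01% of genes), and short stretches around TGACG were found upstream of PER2, CRY1, CRY2 and NR1D2. The 30-base stretches below show where letters of the RORE core and of TGACG occur, with the motif in capitals. Whether any of these matches is used was not tested. All are from RefSeq on GRCh38.p14 and read along the gene's strand, forward for CRY2 and reverse for PER2 and CRY1. The CRY2 stretch is chr11:45847399-45847428, with the motif within an annotated exon. That of PER2 is chr2:238288646-238288675, outside annotated exons but inside the longer PER2 gene of the GENCODE annotation. The CRY1 stretch, chr12:107093550-107093579, lies within an annotated exon.
CRY2, RORE core: ttgcggcgtcaTAGGTCActgggcgggcta
PER2, TGACG: cggcggacgggcTGACGcgggcgcggccgg
CRY1, TGACG: ggccgaggccgcTGACGcggcggcggcggc

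NR1D1 and NR1D2 encode the REV-ERB receptors, heme-binding repressors of ARNTL, and lie at chr17:40092787-40100725 (reverse strand) and chr3:23945260-23980618 (forward strand) of GRCh38. NR1D1 had FPKM of 3.91 and 4.79 in MDA-MB-468 DMSO and of 5.64, 4.94 and 5.79 in PKC412. In ZR75-1 it had 4.91 and 5.63 in DMSO and 4.41, 6.04 and 5.29 in PKC412. Its log2 differences were 0.27 (-0.11 to 0.65, limma adjusted p = 0.370) and -0.01 (-0.39 to 0.37, adjusted p = 1), and the first became -0.0035 after rescaling to equal median ratios over all 10 samples. NR1D1 shares 263 of its 2772 exonic bases with THRA on the opposite strand, a thyroid hormone receptor gene with means of 2.24 and 3.72 FPKM in MDA-MB-468 and 4.02 and 7.35 in ZR75-1 (DMSO and PKC412). Whether fragments were counted by strand was not given in the sources used here, so reads from the shared bases cannot be assigned.

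NR1D2 was lower and more scattered than NR1D1. Its FPKM was 0.771 and 1.45 in MDA-MB-468 DMSO and 3.42, 1.59 and 1.96 in PKC412. ZR75-1 gave 0.510 and 1.32 in DMSO and 0.917, 0.259 and 1.25 in PKC412. The treated samples lay above the solvent samples in MDA-MB-468 and overlapped them in ZR75-1, with log2 differences of 0.64 (-0.14 to 1.41, limma adjusted p = 0.335) and -0.09 (-0.86 to 0.68, adjusted p = 0.969). The 250 bases before its second RefSeq start held 2 E-boxes, a D-box on the reverse strand and 2 copies of TGACG, and are shown for that reason (chr3:23945871-23946120, GRCh38.p14, forward strand, from RefSeq, free of annotated exons and inside the gene). Capitals mark the E-boxes CACGTG and the D-box TTACATAA, the reverse complement of TTATGTAA.
NR1D2: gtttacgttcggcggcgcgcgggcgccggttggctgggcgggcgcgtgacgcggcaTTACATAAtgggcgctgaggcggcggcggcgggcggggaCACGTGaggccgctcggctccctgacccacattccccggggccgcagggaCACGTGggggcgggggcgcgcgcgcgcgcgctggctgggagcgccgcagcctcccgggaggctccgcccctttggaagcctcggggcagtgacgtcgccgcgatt
No letters of the motifs searched were found in the windows of NR1D1, DBP, ARNTL and CLOCK.

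DBP (chr19:48630030-48637438, GRCh38, reverse strand), the D-box activator and the most abundant member, was the only member with fitted differences below 0 in both lines, though in MDA-MB-468 the value was 0.15 after the GC adjustment described below. Its FPKM was 21.3 and 18.8 in MDA-MB-468 DMSO and 17.5, 20.5 and 19.1 in PKC412, and these groups overlapped. The values of ZR75-1 were 15.9 and 15.0 in DMSO and 10.0, 13.3 and 7.93 in PKC412, all 3 treated samples below both solvent samples, a ratio of means of 0.675. The log2 differences were -0.07 (-0.51 to 0.36, limma adjusted p = 0.852) and -0.55 (-0.99 to -0.12, adjusted p = 0.345). DBP shares 661 of its 6544 exonic bases with SPHK2 on the opposite strand, whose means were 3.98 and 3.31 FPKM in MDA-MB-468 and 3.51 and 3.64 in ZR75-1.

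ARNTL (chr11:13276652-13387266, forward strand) and CLOCK (chr4:55427903-55547138, reverse strand, both GRCh38) encode the activator pair. ARNTL had FPKM of 1.09 and 1.32 in MDA-MB-468 DMSO and of 3.35, 2.25 and 2.79 in PKC412. In ZR75-1 it had 0.543 and 2.29 in DMSO and 2.08, 1.01 and 3.43 in PKC412. The ratio of means was 2.33 in MDA-MB-468, where the groups separated, with a log2 difference of 0.78 (-0.12 to 1.68, limma adjusted p = 0.326). In ZR75-1 the groups overlapped, at 0.42 (-0.48 to 1.32, adjusted p = 0.747). CLOCK, its partner and a histone acetyltransferase, had 0.495 and 0.753 in MDA-MB-468 DMSO and 1.76, 0.852 and 1.26 in PKC412. In ZR75-1 CLOCK had 0.273 and 0.717 in DMSO and 0.622, 0.155 and 1.14 in PKC412. Its log2 differences were 0.48 (-0.15 to 1.11, adjusted p = 0.355) and 0.10 (-0.53 to 0.74, adjusted p = 0.944). CLOCK shares 76 of its 11762 exonic bases with TMEM165 on the opposite strand, which had means of 9.12 and 19.5 FPKM in MDA-MB-468 and 14.0 and 22.3 in ZR75-1.

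Over the 10 members, the median log2 difference with PKC412 was 0.54 in MDA-MB-468, beside 0.11 over all genes, and 0.25 in ZR75-1, beside 0.07. In MDA-MB-468, 9 members (all but DBP) had every treated sample above every solvent sample, against 39.6% of all genes, and 0 had every treated sample below, against 16.3%. In ZR75-1, 3 members (PER1, PER2 and CRY2) separated upward, against 14.8% of genes, and 1 (DBP) downward, against 6.98%. The members were chosen with such values known, so these counts describe them and are not tested.

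**Figure D2:**
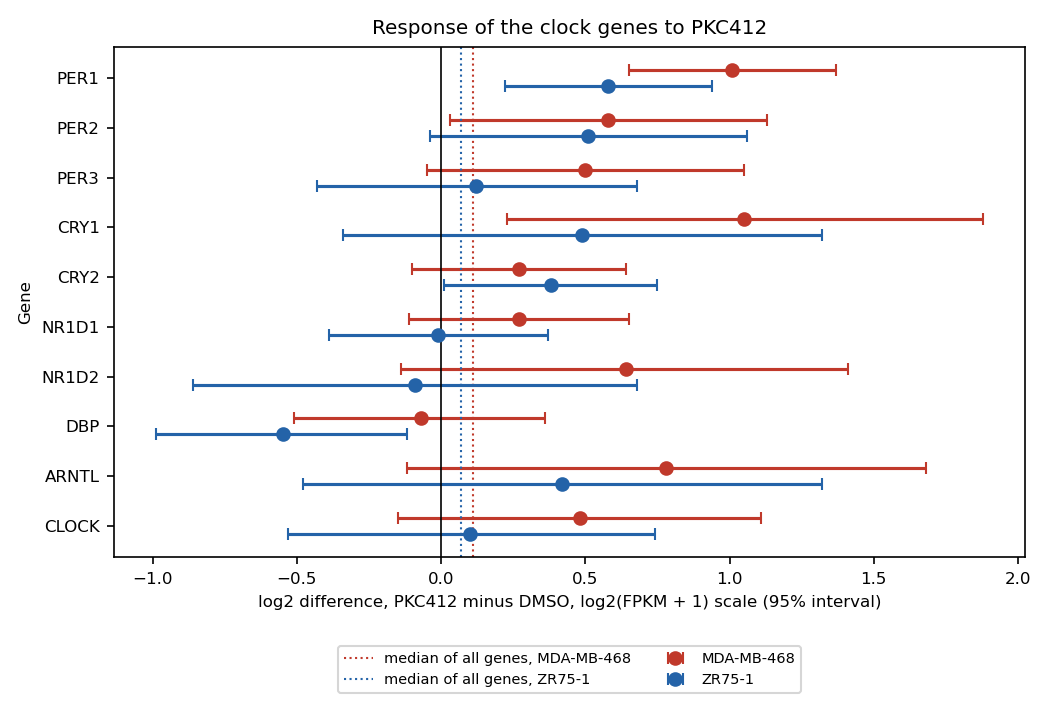
Log2 difference between PKC412 and DMSO samples on the log2(FPKM + 1) scale (horizontal axis) for each clock gene (vertical axis), in MDA-MB-468 (red) and ZR75-1 (blue), with 95% intervals from limma and the median of all genes as dotted lines (0.11 and 0.07). The PER1 point of MDA-MB-468, at 1.01, has a narrow interval from 0.65 to 1.37, whereas that of CRY1, at 1.05, runs from 0.23 to 1.88.

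Base composition moved with the treatment in MDA-MB-468 and with single samples in ZR75-1. The GC slope of a sample is how much its genes, against their mean in that line, change on the log2 scale per 10 percentage points of GC in the transcript. It was 0.372 and 0.057 in the DMSO samples of MDA-MB-468 and -0.286, -0.025 and -0.119 in the PKC412 samples, with both DMSO samples above all treated ones. In ZR75-1 it was 0.315 and -0.191 in DMSO and -0.106, 0.338 and -0.356 in PKC412, so that the treatments overlapped. The members span much of the range of GC, from CLOCK (37.2%), NR1D2 (38.5%), ARNTL (45.4%), PER3 (46.2%) and CRY1 (47.7%) through PER2 (52.4%), CRY2 (57.0%) and NR1D1 (59.5%) to PER1 (62.7%) and DBP (65.5%).

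In MDA-MB-468, 6 members (PER2, PER3, CRY1, NR1D2, ARNTL and CLOCK) had their 5 samples in exactly the reverse order of the GC slope, against 27.8% of all genes. In ZR75-1 it was 2 members (PER3 and CLOCK), against 10.1%. In MDA-MB-468 that order also puts every treated sample above both solvent samples, so GC slope and treatment cannot be told apart there. Among these members PER2, at 52.4% GC, lies above the median of 49.0% over all matched symbols. The reverse order is the one that the slope gives to AT-rich genes. PER1, with 62.7% GC, was in neither set, and its absence therefore says nothing of the part of the slope in its level, which was not tested. The ZR75-1 samples of PER1 had 1.50 and 1.77 FPKM in DMSO, at GC slopes of 0.315 and -0.191. With PKC412 they had 2.52, 3.16 and 3.16, at slopes of -0.106, 0.338 and -0.356. After each sample was adjusted for GC content and length, the PER1 difference in MDA-MB-468 was 1.02 (SE 0.11, limma adjusted p = 0.00205), as large as without the adjustment. PER1 was again the only member to pass, 1 of 10 against 3.77% of genes. The values of the AT-rich members moved more, from 0.64 to 0.17 for NR1D2, from 0.48 to 0.12 for CLOCK and from 0.50 to 0.12 for PER3. CRY1 went from 1.05 to 0.80, ARNTL from 0.78 to 0.51 and PER2 from 0.58 to 0.47. Because the slope goes with the treatment in MDA-MB-468, the adjustment also removes any drug effect that follows GC content. Bias and drug effect cannot be told apart in these changes. In ZR75-1 no member passed after the adjustment, 0 of 10 against 2.97%, with PER1 at 0.50 (adjusted p = 0.0552) and DBP at -0.47 (adjusted p = 0.0564).

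**Figure D3:**
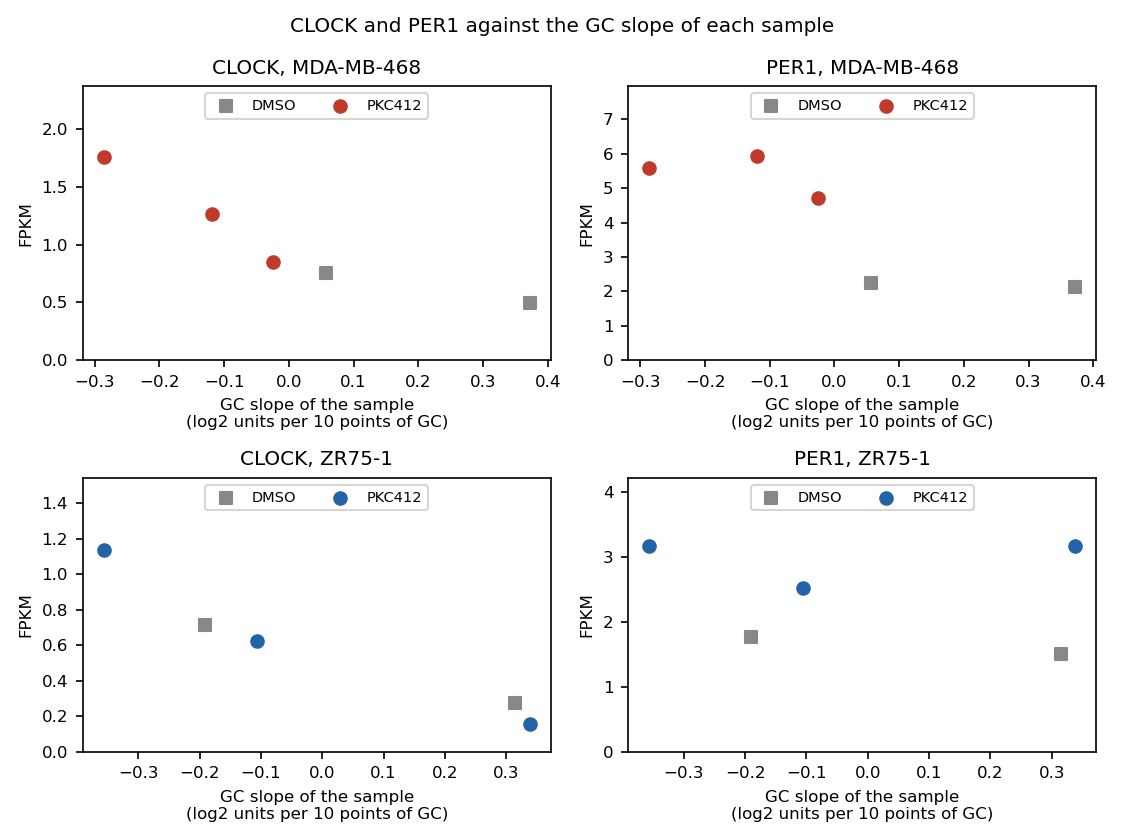
FPKM of CLOCK (left) and PER1 (right) against the GC slope of each sample (log2 change for each 10 percentage points of GC), for MDA-MB-468 (top) and ZR75-1 (bottom), with DMSO samples as grey squares and PKC412 samples as coloured circles. CLOCK (37.2% GC) and PER1 (62.7% GC) lie near opposite ends of the members' range of GC. CLOCK falls as the slope rises in both lines whatever the treatment. The PKC412 samples of PER1 lie above the DMSO samples in both lines, in MDA-MB-468 at lower slopes than both DMSO samples and in ZR75-1 at slopes that overlap theirs.

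Levels between the lines were compared at the same treatment. In DMSO, 1 of 10 members passed, PER3, with a log2 difference of 1.15 (SE 0.26, interval 0.54 to 1.76, limma adjusted p = 0.00825), against 42.4% of all genes. The call was lost without MDA-MB-468 DMSO replicate 2 (1.07, adjusted p = 0.0527). PER1, PER3, CRY2 and DBP, 4 members, had both MDA-MB-468 samples above both ZR75-1 samples in DMSO, against 42.3% of genes, and NR1D1 alone, 1 member, had both below, against 27.3%. Differences of the other members in DMSO ran from -0.23 (NR1D1, interval -0.65 to 0.19) to 0.61 (CRY1, -0.30 to 1.52). The median over the members was 0.21, beside 0.11 over all genes.

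With PKC412, 5 of 10 members passed, all higher in MDA-MB-468, against 58.6% of genes in either direction. These were PER3 (1.53, interval 1.03 to 2.02, limma adjusted p = 0.000439), CRY1 (1.17, 0.43 to 1.91, 0.0142), NR1D2 (0.88, 0.19 to 1.57, 0.0342), DBP (0.83, 0.45 to 1.22, 0.00323) and PER1 (0.70, 0.38 to 1.02, 0.00305). The same PKC412 samples enter the comparisons with DMSO, and the test above found no member whose difference between the lines changed with treatment. In 6 members, those 5 and CRY2, every MDA-MB-468 sample was above every ZR75-1 sample, against 40.3% of genes. Rescaling to equal median ratios over all 10 samples brought PER1 to 0.34 (adjusted p = 0.130) and DBP to 0.42 (0.306), so that 3 members passed. Leaving out MDA-MB-468 PKC412 replicate 1 also left 3, without CRY1 (0.98, 0.0527) and NR1D2 (0.65, 0.113), and NR1D2 fell short as well without MDA-MB-468 PKC412 replicate 3 (0.94, 0.0630) or ZR75-1 PKC412 replicate 1 (0.94, 0.0631) or 2 (0.64, 0.104).

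After the adjustment for GC content and length within each line, which for this comparison was added after the data were seen, 4 members passed in DMSO, PER3 (1.32), CRY1 (0.73), CRY2 (0.37) and CLOCK (0.32), against 60.1% of genes. With PKC412 it was 7, against 69.7%, namely PER1, PER3, CRY1, CRY2, NR1D2, DBP and CLOCK. PER2, NR1D1 and ARNTL passed in neither treatment under either form of the values. The adjustment set each sample against the mean of its own line. Effects of GC content or length that differ between the lines therefore stay in these values. What it reduced was the spread within lines, as for PER3 in DMSO, whose SE went from 0.26 to 0.12.

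**Figure D4:**
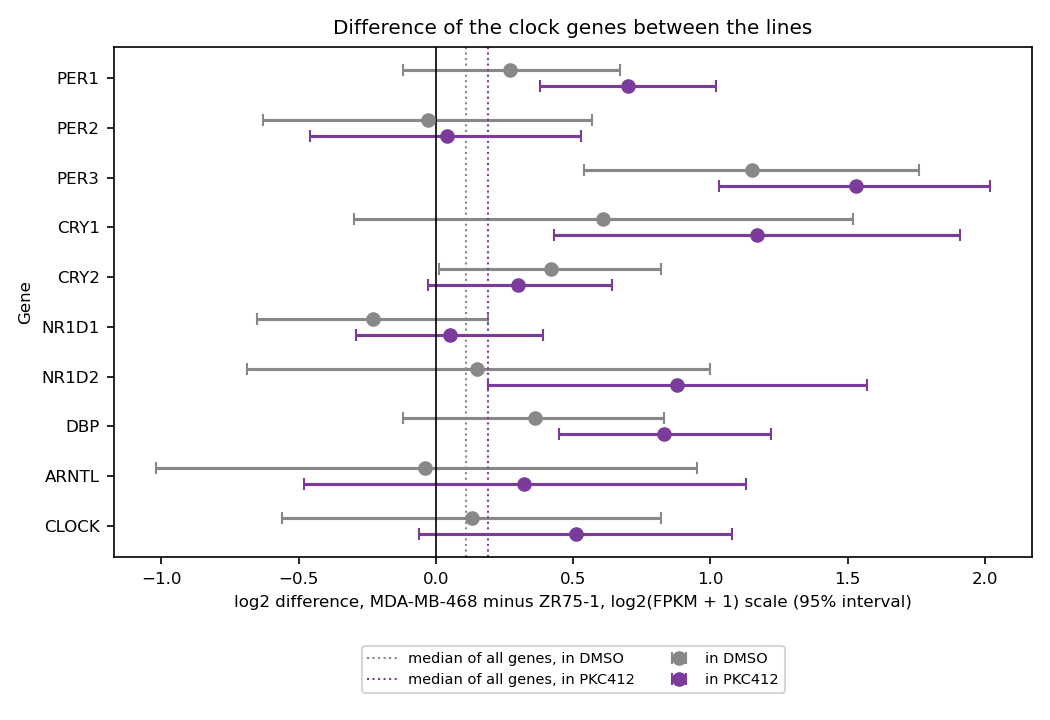
Log2 difference between MDA-MB-468 and ZR75-1 on the log2(FPKM + 1) scale (horizontal axis) for each clock gene (vertical axis), in DMSO (grey) and in PKC412 (purple), with 95% intervals from limma and the median of all genes as dotted lines (0.11 and 0.19). PER3 lies furthest to the right in both treatments, at 1.15 and 1.53.

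Of 22 other clock genes (among them paralogues of the activators, E-box repressors and the kinases, phosphatases, ligases and partners of PER and CRY), 19 could be tested. In MDA-MB-468 none passed with PKC412, 0 of 19 by limma, against 1.26% of all genes. At an unadjusted p under 0.05 were 7, against 2635 of all 16071 genes. The median of the list was 0.41 in MDA-MB-468, beside 0.11 over all genes, and 0.32 in ZR75-1, beside 0.07. Of 11 output genes of the clock, 10 were tested, and 1 passed in MDA-MB-468 and 0 in ZR75-1 (2 there at an unadjusted p under 0.05), with medians of 0.39 and 0.27. The gene that passed was USP2, a deubiquitinase gene, which fell from 2.69 and 3.47 to 1.59, 1.59 and 1.61 FPKM in MDA-MB-468 (-0.65, adjusted p = 0.0414), and was 0.131 to 0.263 in every ZR75-1 sample.

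Another list held 18 genes of the routes that feed into PER1 (CREB and its coactivators, the SIK kinases, the glucocorticoid receptor and its targets, SRF and its coactivators), of which 17 were tested. In each line 3 passed as higher and 0 as lower, against 1.26% of all genes in MDA-MB-468 and 0.946% in ZR75-1 in either direction. The list's medians were 0.57 (MDA-MB-468) and 0.24 (ZR75-1), beside 0.11 and 0.07 over all genes. These genes were chosen with earlier results of these data known, so the counts describe them and are not tested. SIK1, a CREB-induced kinase that restrains the CREB coactivators, rose in both lines, from 1.97 and 2.52 to 9.28, 6.12 and 7.88 FPKM in MDA-MB-468 (log2 difference 1.42, limma adjusted p = 0.0216) and from 0.399 and 0.547 to 4.58, 4.72 and 6.39 in ZR75-1 (2.07, adjusted p = 0.00478). TSC22D3 (GILZ), a glucocorticoid target, rose from 83.8 and 84.9 to 199 to 210 FPKM in MDA-MB-468 (1.28, adjusted p = 0.00166) and from 57.5 and 63.1 to 109 to 127 in ZR75-1 (0.92, adjusted p = 0.00650). SGK1, a kinase gene of the same kind, passed in MDA-MB-468 (1.85, adjusted p = 0.0182; 0.24, adjusted p = 0.806 in ZR75-1), and DUSP1, a phosphatase gene, in ZR75-1 (2.42, adjusted p = 0.0199; 0.43, adjusted p = 0.462 in MDA-MB-468). The difference between the lines did not pass for either of them (adjusted p = 0.222 and 0.245). FKBP5, a further glucocorticoid target, did not pass with PKC412, and in DMSO was higher in MDA-MB-468 by 2.03 log2 units (adjusted p = 0.00198).

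**Figure D5:**
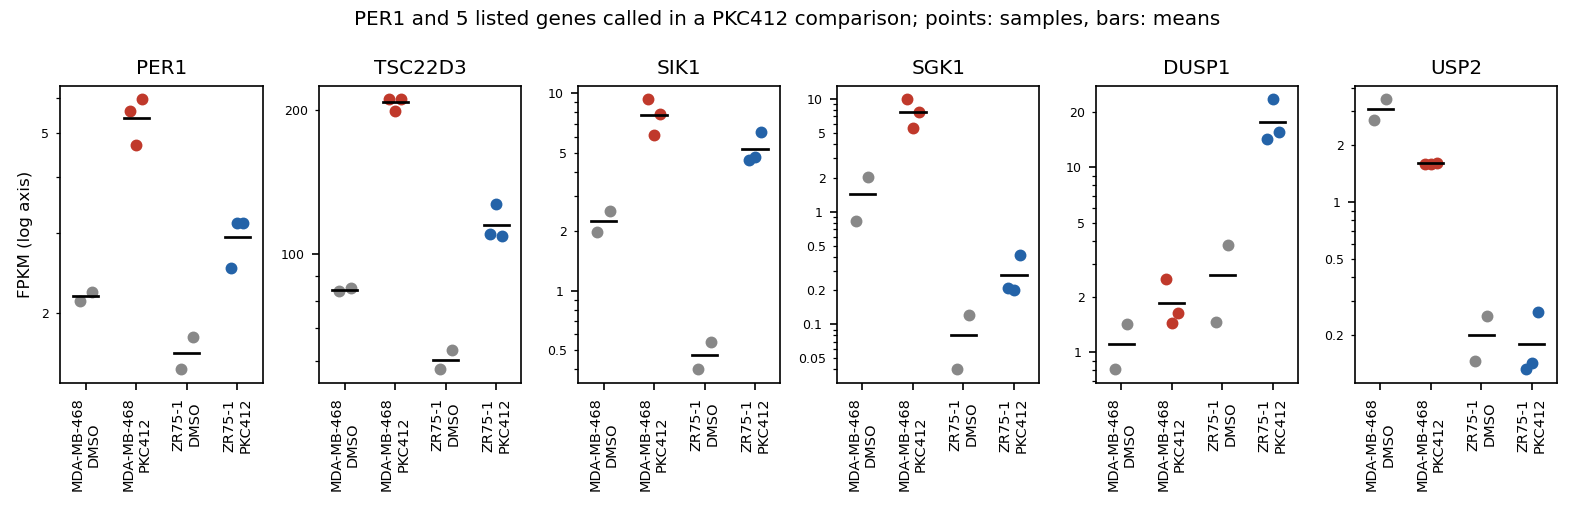
FPKM (logarithmic axis, its range set per panel) of PER1 and of 5 genes from the other lists that passed in a comparison of PKC412 with DMSO, in every sample (points) with group means (bars). TSC22D3 and SIK1 rise in both lines, PER1 and SGK1 pass in MDA-MB-468, DUSP1 in ZR75-1, and USP2 falls in MDA-MB-468.

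The pattern of PER1 over the 10 samples was most like that of TSC22D3 (Pearson r = 0.983), GRAMD1B (0.979) and MAPK4 (0.970), among the 12343 genes whose mean in any 1 group exceeded 1 FPKM. The 10 samples fall into 4 groups, so these coefficients are descriptions with no test. TSC22D3 had group means of 84.3, 207, 60.3 and 115 FPKM (MDA-MB-468 DMSO and PKC412, then ZR75-1 DMSO and PKC412), in the same order as the means of PER1, 2.18, 5.41, 1.63 and 2.94. GRAMD1B had 0.525, 3.21, 0.0740 and 1.09, and MAPK4 0.0808, 1.45, 0.0153 and 0.614.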

How the data were processed

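RNA sequencing of 10 samples of MDA-MB-468 and ZR75-1 cells was analysed from the deposited FPKM values, 1 file per sample with 23426 gene symbols each. The submitters' processing notes name CASAVA 1.82, TopHat2 and the build hg19; the counting tool, the annotation and the read numbers were not given in the sources used here, so depth is unknown. Groups were taken from the sample labels. Values were analysed as log2(FPKM + 1) with limma 3.58.1 in R 4.3.3 (1 mean for each of 4 groups, 6 residual degrees of freedom, eBayes with trend), over the 16071 genes whose mean in any 1 of the groups exceeded 0.1 FPKM. P-values were adjusted over all of these by the method of Benjamini and Hochberg, with a threshold of 0.05. The fit was tested on simulated data. GC content and length came from GENCODE 29 transcripts for 93.6% of symbols, of which 1287 matched through an older symbol, and the adjustment fitted a cubic curve per sample within each line. GENCODE coordinates are GRCh38 and promoter sequences RefSeq GRCh38.p14, not the build of the files. All 10 members were named with every value. Genes of 3 further lists were named where they passed with PKC412, and the 3 genes most correlated with PER1. A few results on genes of these lists are not reported here. The members and lists were chosen with earlier results of these data known. Alternatives changed the pseudocount, filter, scaling, GC adjustment, replicate block, fit and samples.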

Additional observations from a re-analysis of the deposited data

How the results depend on the processing

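Over the PKC412 differences of all members, the PER1 difference in response, and the comparisons between the lines of the 5 members that passed in any of them, 608 values were recomputed under alternatives, and 568 kept their direction and side of the threshold, 18 lost and 1 gained the threshold (CRY1 between the lines in DMSO, 0.73 after GC adjustment, where CRY2 and CLOCK, outside these 5, also gained it in both treatments), and 21 changed sign, all of them values that had not passed. In MDA-MB-468, 202 genes passed with PKC412 (111 higher, 91 lower), 116 with a pseudocount of 0.1, 606 with GC adjustment, 67 with each line fitted alone, and 65 to 333 when a sample was left out; with median ratios the split was 68 higher and 107 lower over all 10 samples and 106 and 132 within each line, as the median of all genes moved from 0.109 to -0.016 and 0.000. Members passing there fell from 1 to 0 with both median ratios and each line alone (PER1 1.01, adjusted p = 0.108), and were 0 to 1 without a sample. In ZR75-1, 152 genes passed, 477 with GC adjustment, 2 with the line alone and 58 to 182 without a sample. For the difference between the lines in response, 43 genes passed, 27 with a pseudocount of 0.1, 68 without a filter or without trend, 220 with GC adjustment and 16 to 62 without a sample. Between the lines, members passing in DMSO were 1, 4 with GC adjustment, 2 without trend and 0 to 1 without a sample (genes 5000 to 7474), and in PKC412 5, 3 with median ratios and 3 to 6 without a sample (genes 7915 to 9884). The causes were not tested.

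With the replicate block, 2 residual degrees of freedom were left and PKC412 replicate 3 of each line was fitted exactly. Genes passing fell to 0 in MDA-MB-468, 0 in ZR75-1 and 0 for the difference between them, members to 0, and PER1 in MDA-MB-468 was 0.95 (adjusted p = 0.683). With block and GC adjustment together the counts were 3, 3 and 4, members 0 and PER1 0.98 (adjusted p = 0.284). The numbers give only 2 pairs per line. In their deviations from the group means, samples sharing a number correlated at -0.187 and -0.133 in MDA-MB-468 and at -0.021 and -0.405 in ZR75-1. With 2 DMSO samples those deviations mirror each other, so the correlations cannot show whether equal numbers mark pairs. The main fit had no block because the methods describe none.

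Signs changed as follows. Median ratios over all 10 samples gave CRY2 -0.0043 and NR1D1 -0.0035 in MDA-MB-468. DBP there was 0.15 with GC adjustment, 0.16 with block and GC adjustment, and -0.16 to 0.01 without a sample. In ZR75-1 PER3 was -0.06 with the replicate block, -0.01 with GC adjustment and -0.09 with both, and CLOCK was -0.11, -0.0069 and -0.08 under these. Without a sample, values in ZR75-1 ran from -0.06 to 0.27 for PER3, from -0.11 to 0.33 for CLOCK, from -0.13 to 0.97 for ARNTL, from -0.10 to 0.09 for NR1D1 and from -0.40 to 0.22 for NR1D2. Between the lines in DMSO, NR1D2 ran from -0.16 to 0.46. Depth is unknown, and 2 or 3 samples a group limit the precision of members with low FPKM.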
